A study of Homo sapiens with 4 samples.

Results

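The Rab genes encode the largest branch of the small GTPases and direct vesicle traffic, and their transcripts were followed here in M14, an established human melanoma cell line. Members were the probe sets whose annotation named 1 gene alone and whose symbol was RAB followed by a number and an optional letter. They came to 133 of the 54613 non-control probe sets of the array and to 56 of 19775 genes. Probe sets shared by a Rab gene and another gene, 11 in all, were left out, and RAB34, RAB6C and RAB6D had none of their own.

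A Rab protein carries a lipid tail and cycles between the cytosol, where it is held by a GDP dissociation inhibitor, and one particular membrane, where an exchange factor loads it with GTP. In that state it recruits effectors, such as tethers and motor adaptors, until a GTPase activating protein of the TBC family switches it off. Each Rab marks its own compartment, from the endoplasmic reticulum and Golgi to endosomes, lysosomes and secretory vesicles, and in pigment cells RAB32 and RAB38 deliver melanin enzymes to maturing melanosomes.

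Each array held total RNA of 1 combination of stable transfectant and culture, 4 arrays in all. The groups were the ARHGAP8 line in 3D, the ARHGAP8 line in 2D, the vector line in 3D and the vector line in 2D. The ARHGAP8 line carried FLAG-tagged ARHGAP8, a GTPase activating protein, as the form without exon 5, in the eGFP vector pIRES2, and the vector line carried pIRES2 alone. Both lines had been selected with G418, sorted for eGFP and grown for 4 days, in 3D embedded in growth factor-reduced Matrigel, a basement membrane gel, and in 2D on plastic coated with type I collagen. The series title names cell motility, and the design asks which transcripts differ with the ARHGAP8 plasmid and which with the culture. With 1 array per group and 1 line per plasmid, variation between separately made lines or cultures was not measured.

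Values are MAS5 signals, in arbitrary units on a linear scale, with a 2% trimmed mean of 150.0 on each array. Signals under 72.3, the median of all non-control signals, were set to that floor before log2 was taken, so where 1 of the arrays compared was at the floor the ratio is only a bound. The shares of probe sets above the floor lay between 48.4% and 51.9% on the 4 arrays. The ARHGAP8 3D array stood apart in its ribosomal control probe sets: the median signal of those for 18S RNA was 626, whereas the remaining arrays read 27.7 to 49.4. The part of this in the results was not tested. The 4 probe sets of ARHGAP8 are shared with a readthrough gene and read 4.02 to 14.8 on all arrays, below the floor, so they give no check of the labels. Of 8 melanocyte lineage genes on the array, 7 were above the floor on all 4 arrays, while PMEL read 4.78 to 15.6. The summed signal of those 8 genes was 8699 in ARHGAP8 3D and 5278 in ARHGAP8 2D, against 9217 in vector 3D and 8314 in vector 2D. Leukocyte markers were below the floor on all arrays, as were 3 of 6 fibroblast, 3 of 5 keratinocyte and 2 of 3 endothelial markers.

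At least 1 array showed a signal above the floor for 95 of the 133 Rab probe sets, or 71.4%, against 58.7% of all probe sets. On at least 2 arrays 91 probe sets of 46 genes were above it, and these entered the test, while 80 probe sets of 43 genes were above it on all 4. No probe set of 9 Rab genes was above the floor on any array. Among these were RAB25, a recycling Rab of epithelial cells, RAB3B, a Rab of regulated secretion with 5 probe sets at 6.46 to 52.9, and RAB31, with 3 probe sets at 5.65 to 39.2. The others were RAB20, RAB33A, RAB37, RAB39B, RAB4A and RAB9B, and RAB40A was above the floor on 1 array.

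In most roles the Rab with the highest signal read much the same on all arrays, as the plot of signals by array shows. RAB1A, which serves traffic from the endoplasmic reticulum to the Golgi, had a signal of 3072 in ARHGAP8 3D and 3063 in ARHGAP8 2D, against 2762 in vector 3D and 2909 in vector 2D. RAB7A, the Rab of late endosomes and lysosomes, read 2864 and 2889 in the ARHGAP8 line in 3D and 2D, against 3196 and 3124 in the vector line. RAB13, a Rab of junctional and exocytic traffic, had signals of 2053 and 1804 in the ARHGAP8 line in 3D and 2D, against 2006 and 2119 in the vector line. These probe sets, with RAB5A of early endosomes and RAB11A of recycling endosomes, had plasmid and culture differences within 0.2 on the log2 scale. RAB38, the melanosome Rab, and RAB23, which acts in cilia and Hedgehog signalling, were the highest of their roles and varied more.

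**Figure D1:**
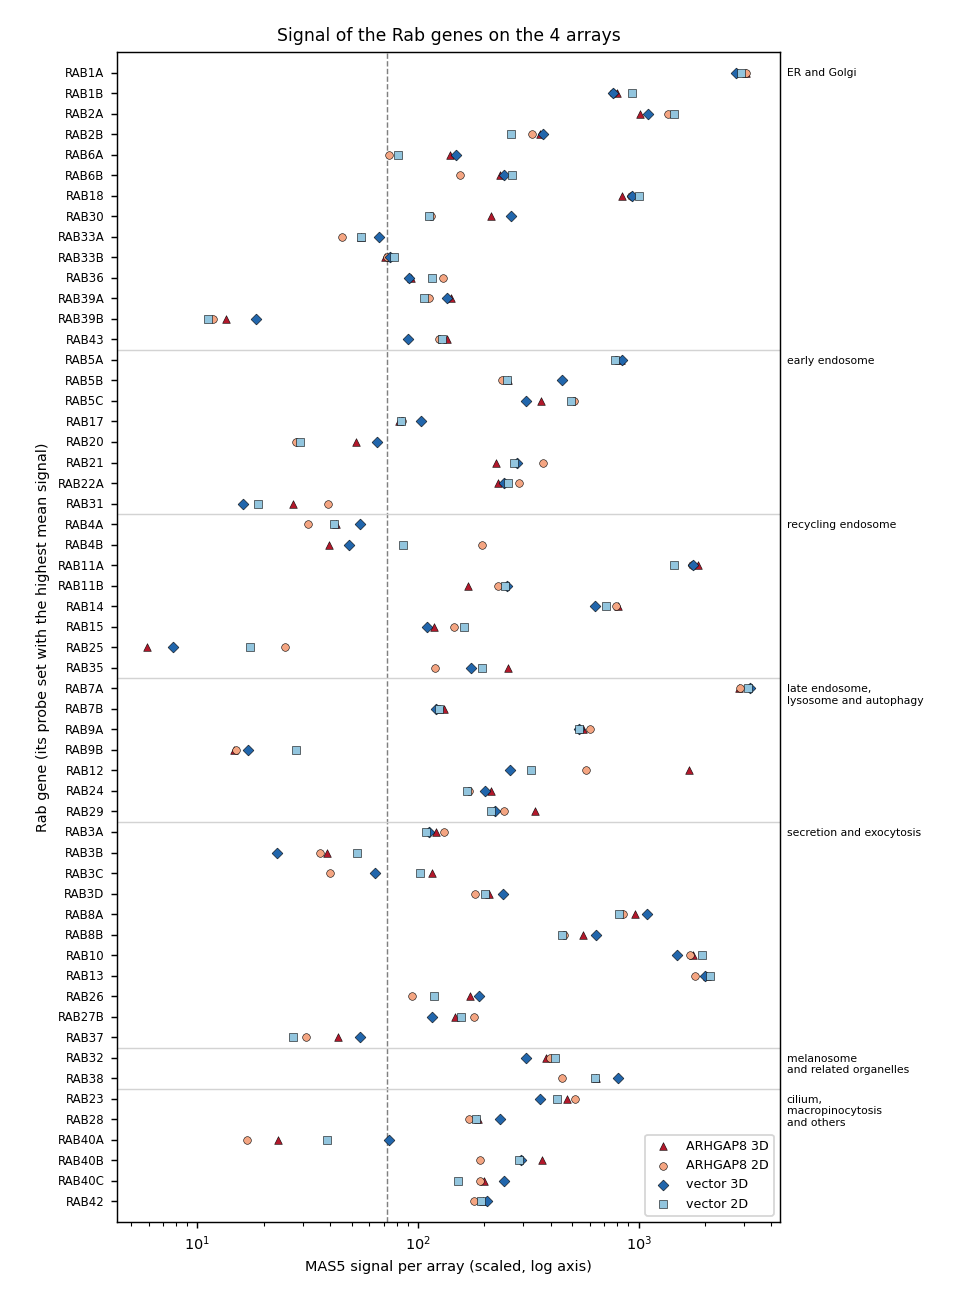
MAS5 signal on a log axis in arbitrary units, 1 point per array, for each Rab gene by its probe set with the highest mean signal, ordered by role, with the floor of 72.3 as a dashed line and no error bar because each group had 1 array. RAB1A, RAB7A and RAB13 have nearly the same signal on all 4 arrays, and the 4 points of RAB12 spread from 262 to 1697.

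The comparison of the ARHGAP8 line with the vector line gave no Rab probe set past the threshold. In the additive limma test of plasmid and culture, 0 of 91 had a Benjamini-Hochberg adjusted p under 0.05, as did 0.0% of the 28651 probe sets tested. At an unadjusted p under 0.05 there were 7 Rab probe sets, or 7.69%, against 7.06% of all tested. The median plasmid difference (ARHGAP8 minus vector, log2) was 0.03 over the 91, against -0.00 over all tested. The sign of the ratio was the same in 3D and in 2D for 49 of the 80 Rab probe sets above the floor on all arrays, or 61.3%, against 52.9% of all such probe sets, with 26 higher and 23 lower in the ARHGAP8 line. Each ratio of 1 array over 1 array has no replicate check, and counts of ratios of at least 2-fold are descriptions. In 3D, 4 of 93 Rab probe sets were at least 2-fold apart, 3 higher and 1 lower in the ARHGAP8 line, against 2.93% of all probe sets compared, 1.51% higher and 1.42% lower. In 2D 1 of 91 was, higher in the ARHGAP8 line, against 0.528% of all, 0.247% higher and 0.281% lower.

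RAB12, a Rab that carries recycling endosome cargo to lysosomes for degradation, had the highest plasmid difference of all 28651 probe sets by 1 of its 3 probe sets, the other one above the floor did not show it, and the last was not measured. The signal of 239891_x_at was 1697 in ARHGAP8 3D and 580 in ARHGAP8 2D, against 262 in vector 3D and 327 in vector 2D. Both ARHGAP8 arrays were above both vector arrays, and the 3D array of the ARHGAP8 line was the highest by far. The plasmid difference was 1.76 ± 0.30 (log2, moderated SE, n = 4 arrays), and limma gave an adjusted p of 0.0758. It consisted of 2.69 in 3D, a 6.47-fold ratio, and 0.83 in 2D. With the 22638 probe sets above the floor on all arrays as the tested set, the same difference had an adjusted p of 0.00337, and with 1 probe set per gene 0.00667. With the mean of the probe sets of each gene, the RAB12 difference was 0.64, with an adjusted p of 0.732 in limma. That mean takes in the probe set that was not measured, which at the floor on all arrays adds no difference and lowers the mean. With quantile normalization the adjusted p was 0.642, and over all 9 alternatives that could be fitted it ran from 0.00337 to 0.915. Without the ARHGAP8 3D array only the 2D ratio of 0.83 remains, which has no test.

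The RAB12 probe set 236019_at read 156 in ARHGAP8 3D and 126 in ARHGAP8 2D, against 129 in vector 3D and 124 in vector 2D. Its plasmid difference was 0.15 ± 0.27 (log2), with an adjusted p of 0.974 in limma. The third probe set, 235059_at, stayed below the floor on all arrays, at 36.5 in ARHGAP8 3D and 22.9 in ARHGAP8 2D, against 9.74 in vector 3D and 19.4 in vector 2D, and gave no test. The order of these arrays is that of 239891_x_at, but an order among signals below the floor supports nothing. The gap of 1.61 between the plasmid differences of the measured RAB12 probe sets was matched or exceeded in 4 of the 4625 genes with more than 1 probe set above the floor on all arrays, RAB12 included, or 0.0865%. The median gap was 0.25 over the 23 such Rab genes and 0.27 over all. RAB12 was known from earlier results of these data to differ between its probe sets, so this gap is a description.

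**Figure D2:**
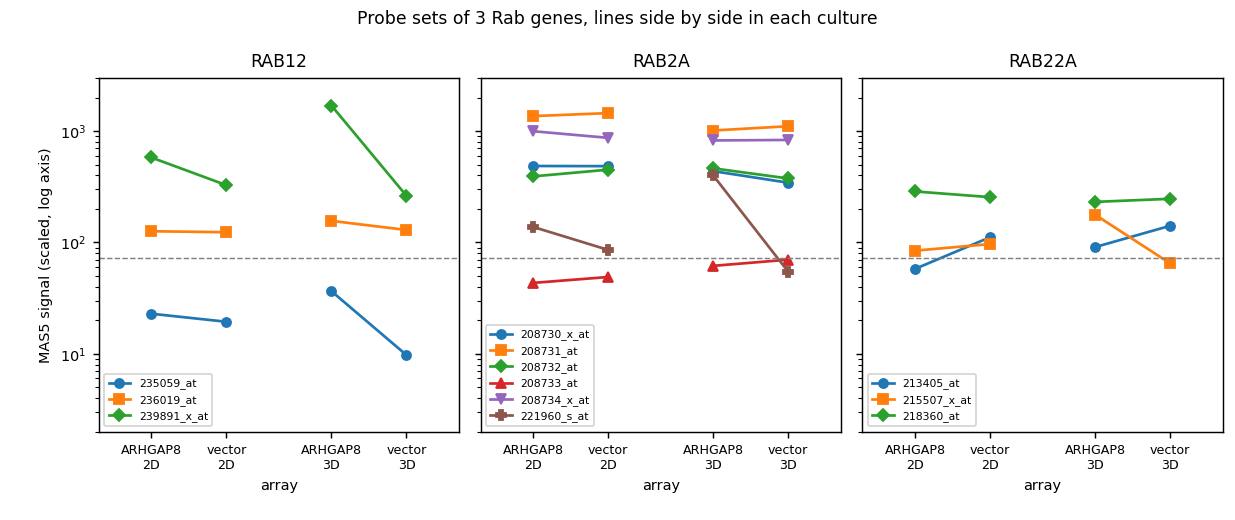
Signal of each probe set of RAB12, RAB2A and RAB22A on a log axis in arbitrary units, with a line joining the ARHGAP8 and the vector array of each culture, the floor of 72.3 dashed and no error bar because each group had 1 array. 239891_x_at of RAB12 and 221960_s_at of RAB2A reach 1697 and 399 in ARHGAP8 3D, while 236019_at of RAB12 lies between 124 and 156 on all arrays and 235059_at of RAB12 is below the floor throughout.

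The suffix _x_at marks an Affymetrix probe set with probes that also match other sequences, and _s_at one whose probes are shared by several transcripts. Of the 6 Rab probe sets with the _x_at suffix 2 were at least 2-fold higher in ARHGAP8 3D than in vector 3D, as were 1 of 29 _s_at and 0 of 58 _at probe sets of Rab genes. Over the whole array these shares were 1.82% of _x_at, 1.49% of _s_at and 1.49% of _at probe sets. The probe set with the profile over the 4 arrays most like that of 239891_x_at, out of all tested, was again that of a Rab gene. It was 221960_s_at of RAB2A, a Rab of the early secretory pathway, at a distance of 0.19 over the centred log2 values of the 4 arrays. Its signal was 399 in ARHGAP8 3D and 138 in ARHGAP8 2D, against 54.4 in vector 3D and 85.7 in vector 2D. That is at least 5.53-fold higher with ARHGAP8 in 3D, since the vector 3D signal lies below the floor, and 0.69 higher on the log2 scale in 2D. Its plasmid difference of 1.58 ± 0.35 (log2) had an adjusted p of 0.274 in limma. The other tested RAB2A probe sets had plasmid differences of -0.11 to 0.17. The next most alike were a probe set of SERPINE2, a secreted protease inhibitor, at a distance of 0.29, and one of GOLIM4, a Golgi membrane protein, at 0.46. After these came probe sets of MTPN, UBE2H, NFIB and TXN and one with no gene symbol, at distances of 0.49 to 0.62. A shared role of these genes was not tested. Of the 54613 non-control probe sets, 16 were at least 4-fold higher in ARHGAP8 3D than in vector 3D. Among the 133 Rab probe sets 2 were, these of RAB12 and RAB2A. The 4-fold cut was not planned and RAB2A was named after its values were seen, so this count is a description.

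RAB22A, an early endosome Rab, was the other Rab with a probe set at least 2-fold higher with ARHGAP8 in 3D, and its probe sets also disagreed. Its probe set 215507_x_at read 178 in ARHGAP8 3D and 84.4 in ARHGAP8 2D, against 64.9 in vector 3D and 96.7 in vector 2D. The 3D ratio was a bound of 1.30 (log2). Its probe set 213405_at read lower with ARHGAP8 in both cultures, with a plasmid difference of -0.63 and ARHGAP8 2D below the floor, and 218360_at had 0.04, and none of the 3 passed the test. In 2D the only Rab at least 2-fold apart was RAB4B, a recycling Rab, whose 237257_at read 195 in ARHGAP8 2D against 85.1 in vector 2D. In 3D both lines were below the floor for it.

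RAB6B and RAB11B were lower in the ARHGAP8 line by the values of all their probe sets, without passing the test. RAB6B, a Golgi Rab known from neurons, had 3 probe sets with plasmid differences of -0.71, -0.42 and -0.35 (log2). Its 225259_at read 87.5 in ARHGAP8 3D and 83.8 in ARHGAP8 2D, against 124 in vector 3D and 159 in vector 2D, and the lines did not overlap, with an adjusted p of 0.552 in limma. RAB11B, a recycling endosome Rab, had plasmid differences of -0.54 and -0.35 with its 2 probe sets. Its 34478_at read 119 in ARHGAP8 3D and 194 in ARHGAP8 2D, against 220 in vector 3D and 222 in vector 2D.

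The melanosome Rabs had plasmid differences of opposite sign, and neither passed. RAB38 read 644 in ARHGAP8 3D and 449 in ARHGAP8 2D, against 803 in vector 3D and 634 in vector 2D, a plasmid difference of -0.41 ± 0.17 (log2) with an adjusted p of 0.644. The ARHGAP8 3D signal was just above the vector 2D signal, so the lines overlapped, while within each culture the ARHGAP8 line was the lower. The summed signal of the melanocyte lineage genes, given above, was also lower in the ARHGAP8 line within each culture, but its members differed. MLANA read 1753 and 489 in the ARHGAP8 line in 3D and 2D, against 1814 and 1614 in the vector line, whereas TYRP1 read 957 and 339 in the ARHGAP8 line, against 438 and 161 in the vector line. The part of these shifts in the RAB38 values was not tested. RAB32 had 0.62 by 228161_at and 0.11 by 204214_s_at. Its 228161_at read 169 in ARHGAP8 3D and 121 in ARHGAP8 2D, against 112 in vector 3D and 76.6 in vector 2D.

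The rest of the 8 highest and 8 lowest plasmid differences with the same sign in both cultures were between 0.34 and 0.55 in size. With positive values were RAB35 by 225620_at at 0.55, RAB7A by 223760_s_at at 0.41, RAB5C by 201140_s_at at 0.38, RAB30 by 206530_at at 0.35 and RAB23 by 223463_at at 0.34. The other tested RAB7A probe sets had -0.30 to 0.31 and the other RAB30 probe sets -0.54 to 0.18. The other tested RAB35 probe set had -0.08, the other RAB5C probe set 0.14 and the other RAB23 probe sets 0.13 and 0.33. RAB5B, an early endosome Rab, had -0.45, with a signal of 255 in ARHGAP8 3D and 241 in ARHGAP8 2D, against 450 in vector 3D and 253 in vector 2D. Only the vector 3D array stood apart for it. RAB29, which acts at the Golgi and lysosomes, had 0.40 by 218699_at and -0.34 by 218700_s_at. None of these passed the test.

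The plasmid ratio differed by at least 2-fold between 3D and 2D for 4 of the 80 Rab probe sets above the floor on all arrays, against 4.38% of all such probe sets. The interaction leaves no residual degree of freedom, so these differences have no test. Beside RAB12 239891_x_at, at 1.87 (3D minus 2D, log2), RAB35 221819_at had 1.24 and RAB7A 227602_at had 1.19. RAB40B, a Rab with a SOCS box, had -1.04 by 204547_at. RAB21, an early endosome Rab that binds integrins, read 225 in ARHGAP8 3D and 369 in ARHGAP8 2D, against 280 in vector 3D and 273 in vector 2D by 203885_at, a difference of -0.75. RAB5B had a difference of the same size, also -0.75.

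The comparison of 3D with 2D culture gave 3 of 91 Rab probe sets past the threshold, or 3.30%, 2 higher and 1 lower in 3D. Over all 28651 tested, 1001 passed, or 3.49%, with 1.63% higher and 1.87% lower. At an unadjusted p under 0.05 there were 14 Rab probe sets, or 15.4%, against 17.6% of all. The median culture difference (3D minus 2D, log2) was 0.04 over the 91 and 0.03 over all. The sign was the same in both lines for 49 of 80 Rab probe sets, 28 higher and 21 lower in 3D, or 61.3% against 63.0% of all. At least 2-fold apart in the ARHGAP8 line were 6 of 92 Rab probe sets, 4 higher and 2 lower in 3D, against 3.98% of all, 2.06% higher and 1.92% lower. In the vector line 3 of 92 were, 2 higher and 1 lower in 3D, against 3.03% of all, 1.71% higher and 1.31% lower. The 3 calls belong to RAB30 and RAB35, whose promoters are printed here because these are the Rab genes that passed the test. Each is the 250 bases before a RefSeq transcription start on GRCh38.p14, on the minus strand and 5′ to 3′, at chr11:83071898-83072147 for RAB30 and chr12:120116754-120117003 for RAB35. Capitals mark the CCAAT box, read here on the opposite strand as ATTGG, and the GC box GGGCGG.
RAB30: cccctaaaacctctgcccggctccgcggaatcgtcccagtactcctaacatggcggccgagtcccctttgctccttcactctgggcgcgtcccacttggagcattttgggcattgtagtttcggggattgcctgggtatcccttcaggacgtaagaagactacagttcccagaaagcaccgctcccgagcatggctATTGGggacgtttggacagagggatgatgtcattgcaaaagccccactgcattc
RAB35: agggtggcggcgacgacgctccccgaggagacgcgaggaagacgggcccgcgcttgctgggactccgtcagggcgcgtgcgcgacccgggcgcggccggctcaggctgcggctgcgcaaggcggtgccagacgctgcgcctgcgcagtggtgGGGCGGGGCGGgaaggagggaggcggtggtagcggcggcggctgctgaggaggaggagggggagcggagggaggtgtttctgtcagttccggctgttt

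The RAB30 window printed, the outermost of 3 in the table, has 1 CCAAT box, no GC box and 56.4% G and C. The other RAB30 windows have 2 and 0 CCAAT boxes, no GC box, and 53.2% and 50% G and C. The RAB35 window has 2 overlapping GC boxes, no CCAAT box and 74.4% G and C. Of the 56 Rab genes 44 had such a window, 59 windows in all, and RAB12, RAB2A and RAB38 had none. Motifs were searched on both strands. GGGCGG was found in 78.0% of the Rab windows and 42.6% of all 35116 windows, and the median share of G and C was 65.6% over 1 window of each Rab gene and 58% over all. CCAAT was found in 30.5% and 32.0%, the hypoxia core ACGTG in 28.8% and 18.5%, and the E-box CACGTG, which contains that core, in 8.47% and 6.34%. A match is a description of these letters and shows no site of binding.

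RAB30, a Golgi Rab, had the highest culture differences of the family, and all 5 of its probe sets read higher in 3D. The signal of 229072_at was 215 in ARHGAP8 3D and 265 in vector 3D, against 115 in ARHGAP8 2D and 112 in vector 2D. Both 3D arrays were above both 2D arrays. The culture difference was 1.08 ± 0.27 (log2, moderated SE, n = 4 arrays), and limma gave an adjusted p of 0.0370. The signal of 228390_at was 135 in ARHGAP8 3D and 284 in vector 3D, while both 2D arrays were below the floor at 65.6 and 70.0. Its ratio of 3D over 2D was thus at least 0.90 in the ARHGAP8 line and at least 1.97 in the vector line (log2). With the 2D values at the floor the fitted culture difference was 1.44 ± 0.29, with an adjusted p of 0.0144 in limma. The other probe sets had culture differences of 0.59, 0.42 and 0.36, with adjusted p-values of 0.222, 0.439 and 0.516. In the vector line alone, without the ARHGAP8 3D array, the ratios were 1.25 for 229072_at and at least 1.97 for 228390_at, with no test. After quantile normalization the adjusted p-values were 0.0841 and 0.0563.

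RAB35, a Rab of endocytic recycling, was lower in 3D by 1 of its probe sets. The signal of 225620_at was 120 in ARHGAP8 3D and 74.4 in vector 3D, against 253 in ARHGAP8 2D and 189 in vector 2D. Both 3D arrays were below both 2D arrays, and the vector 3D signal was just above the floor. The culture difference was -1.21 ± 0.27 (log2), with an adjusted p of 0.0228 in limma, and -1.34 in the vector line alone. With a floor of 36.1 the adjusted p was 0.0527. The probe set 221819_at read 255 in ARHGAP8 3D and 174 in vector 3D, against 120 in ARHGAP8 2D and 194 in vector 2D, with a culture difference of 0.47 and an adjusted p of 0.457. The lines went opposite ways there. The gap of 1.68 between these culture differences was the largest among the 23 Rab genes with more than 1 probe set above the floor on all arrays. The probe set 205461_at was above the floor on 1 array and was not tested.

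**Figure D3:**
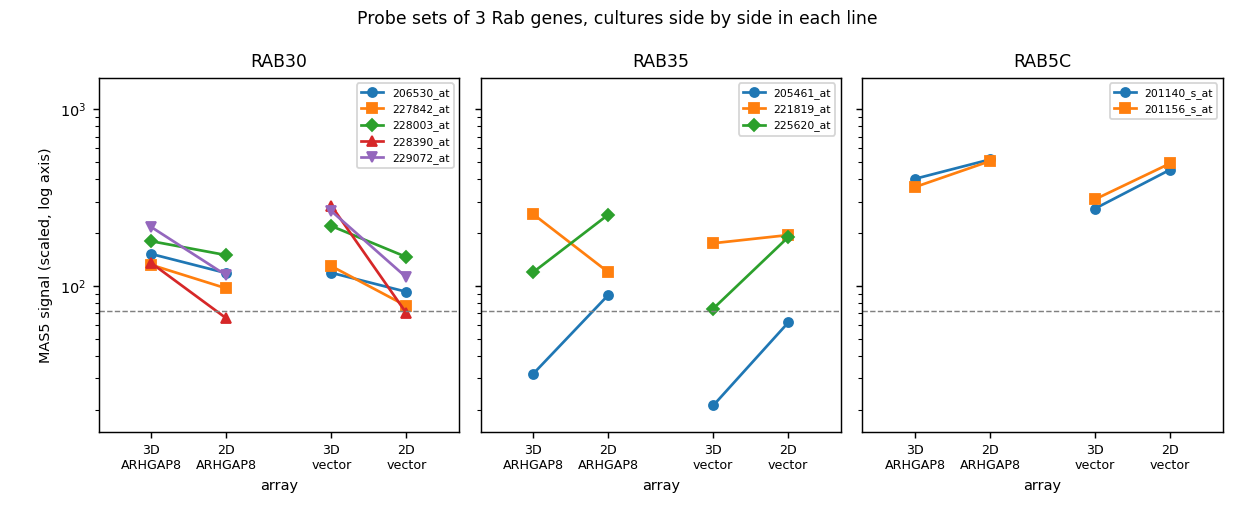
Signal of each probe set of RAB30, RAB35 and RAB5C on a log axis in arbitrary units, with a line joining the 3D and the 2D array of each line, the floor of 72.3 dashed and no error bar because each group had 1 array. The RAB30 probe sets are higher in 3D in both lines, and 225620_at of RAB35 and both RAB5C probe sets are lower in 3D in both lines.

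Other Rabs had culture differences of the same sign in both lines without passing. RAB6A, a Golgi Rab, read 140 in ARHGAP8 3D and 148 in vector 3D, against 73.7 in ARHGAP8 2D and 81.2 in vector 2D by 1559174_at. This difference of 0.89 (log2) had an adjusted p of 0.0578, and 0.0218 among probe sets above the floor on all arrays. The 4 RAB6A probe sets shared with other Rab genes had culture differences of 0.03 to 0.26, and none passed. RAB26, a Rab of secretory vesicles, had 0.77 by 50965_at with an adjusted p of 0.141. RAB5C, an early endosome Rab, was lower in 3D by both of its probe sets, at -0.58 and -0.55, with adjusted p-values of 0.104 and 0.140. Its 201156_s_at read 362 in ARHGAP8 3D and 309 in vector 3D, against 508 in ARHGAP8 2D and 493 in vector 2D, so the cultures did not overlap. RAB5B had 0.46 in the other direction.

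The rest of the named culture differences were between 0.36 and 0.56 in size, and none passed. Higher in 3D were RAB7A by 223760_s_at at 0.56, RAB32 by 228161_at at 0.52, RAB40B by 217597_x_at at 0.47 and RAB38 at 0.43 with an adjusted p of 0.192. The other tested RAB7A probe sets had -0.10 to 0.15, the other tested RAB40B probe set -0.16 and the other RAB32 probe set -0.24. Lower in 3D were RAB8B, an exocytic Rab, by 219210_s_at at -0.44, RAB15 at -0.43, RAB36 at -0.41, RAB2A by 208731_at at -0.41 and RAB11B by 34478_at at -0.36. The other RAB8B probe sets had 0.07 and 0.39, and the other tested RAB2A probe sets -0.32 to 0.64. By role, the 11 tested probe sets of recycling endosome Rabs had a median culture difference of -0.28 with 1 lower, that of RAB35, beside 1.87% of all tested. The 27 of the endoplasmic reticulum and Golgi had 0.03 with 2 higher, both of RAB30, beside 1.63% of all. The medians of the other roles lay between -0.06 for early endosome Rabs and 0.43 for the 3 melanosome probe sets.

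**Figure D4:**
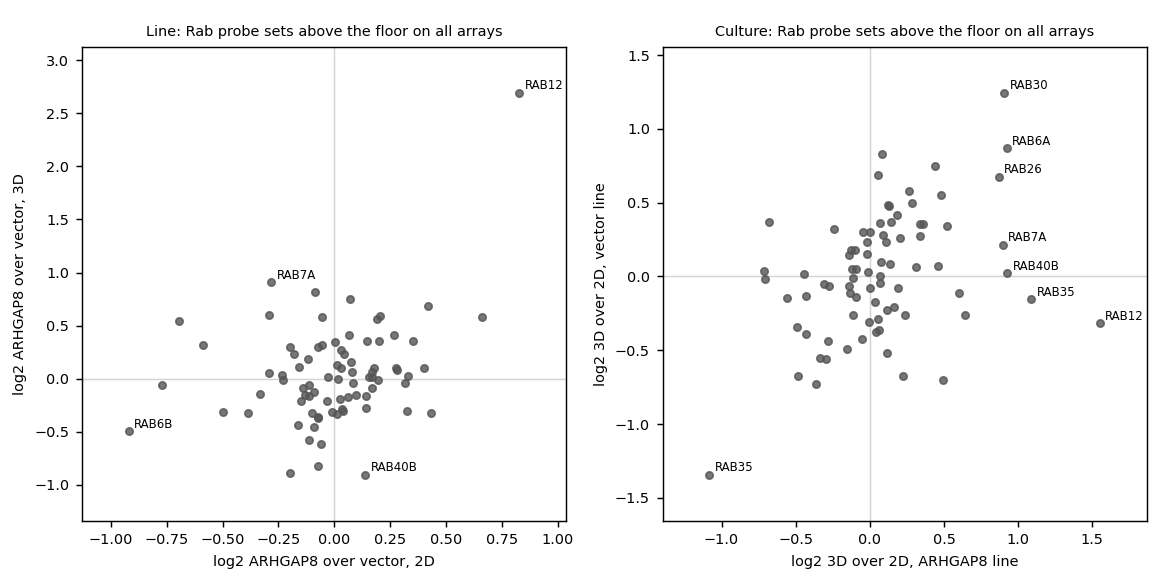
Plasmid ratio (ARHGAP8 over vector, log2) in 3D against that in 2D on the left, and culture ratio (3D over 2D, log2) in the vector line against that in the ARHGAP8 line on the right, with 1 point for each of the 80 Rab probe sets above the floor on all arrays and no error bars because each ratio sets 1 array against 1 array. A RAB12 point lies apart on the left at 2.69 in 3D and 0.83 in 2D, and RAB30 and RAB35 points lie at opposite ends on the right.

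Proteins that load, switch off or read the Rabs were taken from a list of 123 genes, of which 117 were on the array and 104 were tested with 190 probe sets. None passed for the plasmid, and their median plasmid difference was -0.09, against -0.00 over all tested. For the culture 6 of 190 passed, or 3.16%, near the 3.49% of all tested. Of these 4 were higher and 2 lower in 3D, from 4 genes, and the median culture difference over the 190 was 0.01. MICALL1, an effector that works with RAB35 at recycling endosomes, was lower in 3D by both probe sets that passed. Its 55081_at read 311 in ARHGAP8 3D and 316 in vector 3D, against 625 in ARHGAP8 2D and 541 in vector 2D, a culture difference of -0.89 (log2) with an adjusted p of 0.0144. By 221779_at both 3D arrays were below the floor. OPTN, which binds RAB8A and acts as an autophagy receptor, was higher in 3D by 202074_s_at at 0.88 with an adjusted p of 0.0190, and its 202073_at had 0.49 without passing. RABGAP1L, a Rab GTPase activating protein, was higher at 0.95 by 203020_at with an adjusted p of 0.0433, and ARHGAP8 2D was below the floor. Its other tested probe sets, 213982_s_at and 232702_at, had 0.71 and 0.07 without passing. SYTL2, a synaptotagmin-like tether of secretory vesicles, was higher by both of its called probe sets, at 0.80 and 0.70.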

How the data were processed

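Affymetrix HG-U133 Plus 2.0 arrays were read as linear signal intensity values, as the authors deposited them. The submitters' processing notes name MAS5, and its version is not given in the sources used here. MAS5 sets each probe set's scale by its own probes, so levels of different probe sets were not compared by test. Per the labels' protocols, cDNA synthesis started from poly(T) and was followed by repeated linear amplification, which can favour 3' ends. The 62 control probe sets were left out, arrays were scaled to a common 2% trimmed mean, the floor of 72.3 was set, and log2 was taken. Probe sets above it on at least 2 arrays (28651) entered an additive limma 3.58.1 model (R 4.3.3) of plasmid and culture, with two-sided eBayes tests (trend by intensity), Benjamini-Hochberg adjusted over all of them, threshold 0.05. It has 1 residual degree of freedom, the difference of differences, and 13.9 prior degrees of freedom. Standard errors are moderated and leave out variation between lines or cultures.

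On simulated data with 26929 probe sets tested on average, 88.2% of 2-fold plasmid changes and 88% of 2-fold culture changes were called, with 9.8 of 167.9 and 10.1 of 167 calls false on average. Changes were planted only in probe sets whose mean log2 signal exceeded the log2 of 145. The noise was normal, varied smoothly with intensity and held no variation between lines or cultures. Probe sets of equal intensity had equal noise there, which real probe sets need not have. The shares called therefore do not show how many real changes the test would find on these arrays. Some Rab probe sets lay below the signal of 145, RAB30 228390_at and RAB35 225620_at among them, so these shares do not describe them at all. The number of arrays limits the precision.

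Symbols came from the platform annotation, and an update through gene identifiers changed 0 member symbols; 41091 probe sets carried 1 symbol, 1801 several and 11721 none. Promoters came from RefSeq (GRCh38.p14). Members and lists were chosen with earlier results of these data known. Named were all RAB12 probe sets, those passing the test, the 8 highest and 8 lowest of each effect with the same sign in both cultures or lines, the 3 largest differences of the plasmid ratio in each direction, the brightest Rab per role and the regulators that passed. RAB2A 221960_s_at, RAB22A, RAB4B and the probe sets with profiles like that of RAB12 were named after their values were seen. Alternatives were quantile and cyclic loess normalization, other floors, a filter on all arrays, eBayes without trend, and 1 value per gene. 1 Rab gene is not reported here.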

Additional observations from a re-analysis of the deposited data

Results flagged for a closer look

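The plasmid ratios (ARHGAP8 over vector, log2) of 3 Rab probe sets pointed opposite ways in the 2 cultures and differed by at least 2-fold. Whatever the signs, 4 of 80 Rab probe sets above the floor on all arrays, or 5%, differed by that much, against 4.38% of all. The share of all probe sets with opposite signs as well was not counted. Each ratio sets 1 array against 1 array, and the difference was not tested. RAB35 221819_at had 0.55 in 3D and -0.70 in 2D, a difference of 1.24. Its signal was 255 in ARHGAP8 3D and 120 in ARHGAP8 2D, against 174 in vector 3D and 194 in vector 2D, and the other RAB35 probe set that was tested had a difference of 0.26. RAB7A 227602_at had 0.91 in 3D and -0.28 in 2D, a difference of 1.19. Its signal was 217 in ARHGAP8 3D and 154 in ARHGAP8 2D, against 115 in vector 3D and 187 in vector 2D, while the brightest RAB7A probe set had a difference of -0.05. RAB40B 204547_at had -0.90 in 3D and 0.14 in 2D, a difference of -1.04. Its signal was 85.7 in ARHGAP8 3D and 137 in ARHGAP8 2D, against 160 in vector 3D and 124 in vector 2D, and 217597_x_at of the same gene had a difference of 0.90.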

How the results depend on the processing

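No paired analysis was possible because each group held 1 array and no replicate number, though the additive model itself compares the lines within each culture and the cultures within each line. For the plasmid, 1 Rab probe set, that of RAB12, passed among probe sets above the floor on all arrays and with 1 probe set per gene. Its adjusted p-values were 0.00337 and 0.00667 in limma. Both settings use the values of 239891_x_at for it, so its difference stayed at 1.76 by construction. Over all probe sets 28 (15 higher, 13 lower) and 17 (9 higher, 8 lower) passed there. The ratio of this RAB12 probe set was 2.69 in 3D alone and 0.83 in 2D alone. With the mean of the probe sets of each gene, the RAB12 difference was 0.64, with an adjusted p of 0.732 in limma. That mean is lowered by the RAB12 probe set below the floor on all arrays, which enters with no difference. Rab calls for the culture numbered 3 of 91. They numbered 1 of 91 with quantile or loess normalization, and 1 of 61 and 1 of 107 with floors of 145 and 36.1. With 1 probe set per gene they numbered 1 of 46. With no floor and with the mean of probe sets they numbered 0 of 133 and 0 of 46. The call with 1 probe set per gene was of RAB6A, with an adjusted p of 0.0252 in limma. The probe sets taken there for RAB30 and RAB35 did not pass, with adjusted p-values of 0.346 and 0.356. Over all probe sets, culture calls numbered 1001 of 28651 (466 higher, 535 lower). With quantile normalization they numbered 516 of 28629 (287 higher, 229 lower), and with loess 415 of 27872 (249 higher, 166 lower). Floors of 145 and 36.1 gave 723 of 17221 and 632 of 37650, and no floor 0 of 54613. Without the trend 360 of 28651 passed, with 1 probe set per gene 925 of 13239, and with the mean of probe sets 37 of 13285. Rab probe sets at least 2-fold apart between the lines in 3D numbered 4, and 2, 8 and 13 with floors of 145, 36.1 and none, and 1 above the floor on all arrays. With no floor that is 9.77% of Rab probe sets, against 14.8% of all. With floors of 145 and 36.1 it is 2.86% and 7.48%, against 1.91% and 6.59% of all. Above the floor on all arrays it is 1.25%, against 2.52%. In 2D they numbered 1, and 0, 2 and 9 with floors of 145, 36.1 and none. They numbered 2 there with quantile or loess normalization and 0 above the floor on all arrays. For 3D over 2D they numbered 6 in the ARHGAP8 line, and 2, 10 and 17 with those floors and 3 above the floor on all arrays, and 3 in the vector line, and 0 and 12 with floors of 145 and none. With no floor these shares were 6.77% against 11.3% of all in 2D, 12.8% against 16.3% in the ARHGAP8 line and 9.02% against 14.3% in the vector line. With floors of 145 and 36.1 they were 0% and 1.85% against 0.191% and 2.68% in 2D. In the ARHGAP8 line they were 3.03% and 9.26% against 2.95% and 7.70%, and in the vector line 0% and 2.78% against 2.38% and 5.90%. The 2D shares with quantile and loess normalization were 2.20% each, against 0.501% and 0.494%. Above the floor on all arrays the shares were 0% against 0.327% in 2D and 3.75% against 3.60% in the ARHGAP8 line. Differences of the plasmid ratio numbered 4, and 1, 10 and 18 with floors of 145, 36.1 and none. These are 2%, 10.4% and 13.5%, against 2.60%, 8.11% and 22.4% of all. The alternatives for these differences were added after seeing the data, as were the values of RAB30 and RAB35 in the vector line alone. The plasmid difference of RAB35 221819_at was -0.08, and 0.0610 with a floor of 145. The causes of these shifts were not tested. Of the other comparisons of named probe sets with alternatives, 254 kept direction and side of the threshold, 10 lost the threshold and 2 gained it. Most of the 254 were of probe sets that did not pass in the main setting. All 10 losses were of the 3 culture calls of RAB30 and RAB35, each of which failed in several alternatives.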

Other observations

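Probe sets shared by a Rab gene and another gene were left out of the counts above, and the values of most of them stand here. None passed the test for the plasmid or the culture. RAB34, a Rab of macropinocytosis and ciliogenesis, is covered only by probe sets that also match NARR. 1555630_a_at read 698 in ARHGAP8 3D and 889 in ARHGAP8 2D, against 837 in vector 3D and 1081 in vector 2D, with a plasmid difference of -0.27 (log2) and an adjusted p of 0.809 in limma. 224710_at had a plasmid difference of -0.24. A probe set of RAB6A shared with RAB6D, 201047_x_at, read 1050 in ARHGAP8 3D and 1079 in ARHGAP8 2D, against 1545 in vector 3D and 1191 in vector 2D, with a plasmid difference of -0.35 and an adjusted p of 0.725. 210406_s_at, shared by RAB6A, RAB6C and RAB6D, read 871 in ARHGAP8 3D and 1037 in ARHGAP8 2D, against 1405 in vector 3D and 1064 in vector 2D, with a plasmid difference of -0.36. The other RAB6A probe sets shared with RAB6D, 201045_s_at and 201048_x_at, had plasmid differences of 0.11 and -0.21 and culture differences of 0.26 and 0.03. The probe set shared by RAB43 and its readthrough, 225632_s_at, read 98.8 in ARHGAP8 3D and 123 in ARHGAP8 2D, against 125 in vector 3D and 148 in vector 2D. The 4 shared probe sets of RAB4B were below the floor on all arrays, except 228521_s_at, which read 75.4 in ARHGAP8 2D.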
